A study of Mus musculus with 14 samples.

Results

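The genes described here are the homeobox genes Hoxa3, Hoxa5, Hoxa7, Hoxa9, Hoxa10 and Hoxb4, the TALE homeobox genes Meis1 and Pbx3, and the zinc finger gene Mecom. They were taken as every probe that the array files name for 1 of these 9 genes, which gave 16 of the array's 41174 probes, and each is shown with the scanner software's call of whether it was well above background. Of these 16 probes, 10 from 8 genes passed the filter on dim signal used for testing. The only probe of Hoxa10 did not pass, nor did 5 probes of Hoxa3, Mecom and Pbx3.

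The samples were blood-forming cells of wild-type mice and of Rheb1-/- mice, in which Vav1-cre recombined floxed Rheb1 alleles (Vav1-cre; Rheb1fl/fl). Vav1-cre acts throughout the haematopoietic system, stem cells included. Myeloid progenitors, whose sample titles call them GMP, were measured on 3 wild-type and 3 Rheb1-/- arrays, as were myeloid cells, and hematopoietic stem cells on 1 array of each genotype. Age, sex, pooling and the gates used to isolate the cells are not given in the sources used here, and no sample is tied to an animal. The p-values below therefore rest on the spread between these samples, which may be technical.

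Hox genes encode transcription factors that bind DNA through a homeodomain, and in blood the Hoxa cluster and some Hoxb genes are active in stem cells and early progenitors and are shut down as cells mature. Their proteins bind DNA together with TALE homeodomain partners: Meis1 and the Pbx proteins form complexes with Hoxa9, and this combination sustains self-renewal in stem cells and in many leukaemias. Mecom encodes the stem cell regulator Evi1 and its longer form Mds1-Evi1. Rheb1, listed on the array as Rheb, is a small GTPase and an activator of mTORC1, a kinase complex that controls growth.

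Each probe is a 60-base strand. The sequences shown are those of the 2 Hox probes with a high share of G and C, and of the Meis1 probe that lies nearer the start of the gene. They are in lower case throughout.
Hoxb4 probe A_52_P565957, mm9 chr11:96181521-96181580, plus strand: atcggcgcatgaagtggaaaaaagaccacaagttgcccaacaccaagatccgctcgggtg
Hoxa3 probe A_52_P447935, mm9 chr6:52120410-52120469, minus strand: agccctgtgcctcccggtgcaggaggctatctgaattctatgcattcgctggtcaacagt
Meis1 probe A_52_P670612, mm9 chr11:18911247-18911306, minus strand: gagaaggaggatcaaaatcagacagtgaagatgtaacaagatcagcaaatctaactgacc
The Hoxb4 probe is 53.3% G and C, and 89.8% of the array's probes have less. The Hoxa3 probe is 55.0% G and C, and 92.6% have less. The probes of Hoxa5, Hoxa7 and Hoxa10 lie in the Hoxa cluster on the minus strand of mm9 chromosome 6, between 52152049 and 52181715. Exon and UTR positions of the probes are not given in the sources used here.

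On all 14 arrays together, 58.5% to 67.6% of the spots were well above background. Correlations between replicates, across probes, were 0.987 to 0.991, and 0 spots were saturated. Levels are on a log2 scale relative to the array's 75th percentile, so that 0 is the signal at that percentile and a step of 1 is a doubling. Levels of different probes are not compared, because probes differ in how strongly they bind. The Rheb signal was 3.82 to 4.08 on wild-type and 2.65 to 3.31 on Rheb1-/- progenitor arrays, and 2.86 to 3.61 against 2.16 to 2.43 in myeloid cells. The genotypes therefore did not overlap for Rheb within either cell type, although the single probe is not known to lie in the deleted part. The arrays came on 4 slides. The 3 wild-type myeloid samples shared slide 1 with Rheb1-/- stem cells, and wild-type stem cells shared slide 2 with wild-type progenitor array 1. Slide 2 was scanned on a different day from the other slides, so the stem cell arrays of the 2 genotypes also differed in scan day. Both genotypes of progenitor were present on slide 3 (wild-type arrays 2 and 3, Rheb1-/- arrays 1 and 2). Both cell types of Rheb1-/- were present on slide 4 (progenitor array 3 and the 3 myeloid cell arrays). Slide and genotype cannot be told apart in myeloid cells or in stem cells, nor can slide and cell type between wild-type progenitors and wild-type myeloid cells.

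Hoxa9, the factor most closely tied to stem and progenitor self-renewal, was highest in stem cells, intermediate in progenitors and lowest in myeloid cells. Its probe was well above background on every array. The level was 2.80 on the wild-type and 3.00 on the Rheb1-/- stem cell array. In wild-type progenitors it was 1.12, 0.95 and 0.78 (0.95 ± 0.17 SD, n = 3). In Rheb1-/- progenitors it was 1.07, 1.35 and 1.00 (1.14 ± 0.19). These progenitor values interleave, and each lies below both stem cell arrays: the wild-type stem cell signal was 3.60-fold the wild-type progenitor mean and the Rheb1-/- one 3.63-fold its own progenitor mean. In myeloid cells the wild-type arrays read -4.24, -3.64 and -3.49 (-3.79 ± 0.40), and the Rheb1-/- arrays -2.62, -1.31 and -1.94 (-1.96 ± 0.65). Every Rheb1-/- myeloid cell array was above every wild-type one, and all 6 were far below the progenitors.

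Hoxa7, the neighbour of Hoxa9 in the cluster, was also well above background on all 14 arrays and followed the same order. Stem cell arrays read 2.48 (wild type) and 2.96 (Rheb1-/-), wild-type progenitors 1.91, 2.08 and 1.74, and Rheb1-/- progenitors 1.77, 2.02 and 1.92. The 2 progenitor groups had means of 1.91 and 1.90. Wild-type myeloid cells read -2.68, -1.93 and -2.20 (-2.27 ± 0.38 SD, n = 3) and Rheb1-/- myeloid cells -1.11, -0.91 and -0.88 (-0.97 ± 0.13). As for Hoxa9, the 2 myeloid groups did not overlap, which held for 47.3% of all probes.

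Hoxa5, a gene further towards the 3′ end of the cluster, gave a dimmer probe with the same order of groups. It read -1.14 and -1.01 on the wild-type and Rheb1-/- stem cell arrays, -3.09, -3.14 and -3.49 on the wild-type progenitor arrays, and -2.60, -2.77 and -3.03 on the Rheb1-/- progenitor arrays. Wild-type myeloid cells read -8.02, -7.25 and -6.51, and none of the 3 arrays was well above background. In Rheb1-/- myeloid cells it read -5.97, -5.26 and -5.38, and 1 of 3 arrays passed the background call. The genotypes did not overlap in either cell type, but in myeloid cells most of these values were too dim for the background call. Among all probes the genotypes did not overlap for 19.2% in progenitors and 47.3% in myeloid cells.

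Hoxa10, a homeobox gene of stem cells next to Hoxa9, was well above background on the 2 stem cell arrays and on no other. It read -1.48 in wild-type and -1.36 in Rheb1-/- stem cells, against -7.92 to -6.00 on the 12 other arrays. The stem cell level was at least 16.3- to 25.8-fold higher, depending on which stem cell array and which of the other 4 groups are set against each other. With 1 stem cell array per genotype, none of the comparisons with stem cells has a test.

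Mecom showed a stem cell signal of the same kind in probe A_52_P418901, which read -2.27 and -2.26 in wild-type and Rheb1-/- stem cells. On the other arrays it lay between -8.14 and -5.49, and only Rheb1-/- progenitor array 2, at -5.79, was well above background. The stem cell signal was at least 9.50- to 12.4-fold higher than in the 3 groups without such an array. Probe A_51_P437349 read -5.66 and -4.28 in stem cells and -1.10 on wild-type progenitor array 2. The other 2 wild-type progenitor arrays read -6.52 and -6.54, below background, so that 1 array stood apart by more than 5 units. Probe A_51_P482148 ranged from -6.32 to -4.14, highest in stem cells, and was well above background on 11 arrays. The 3 probes of Mecom thus differed in pattern, and only the first separated stem cells from all other arrays by a wide margin.

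Hoxa3, at the 3′ side of the cluster, also gave discordant probes. Probe A_51_P335169 was well above background only in stem cells, at -4.78 (wild type) and -4.02 (Rheb1-/-), against -8.10 to -6.72 elsewhere, which is at least 1.66- to 4.09-fold higher. Probe A_52_P325300 passed the background call only on the Rheb1-/- stem cell array, at -5.79. The third, A_52_P447935, the G and C-rich probe shown above, was well above background on all 14 arrays and flat, from -2.91 to -2.09. Its lowest value was the Rheb1-/- stem cell array, where the first probe was at its highest.

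Meis1, the TALE partner that stabilises Hoxa9 on DNA, had 2 probes, both well above background on every array and both highest in stem cells. Probe A_52_P26195 read 0.24 and 0.70 in wild-type and Rheb1-/- stem cells. It read -1.84, -1.81 and -2.80 in wild-type and -2.48, -2.74 and -2.86 in Rheb1-/- progenitors. In myeloid cells it read -5.08, -4.75 and -4.68 (wild type) and -5.16, -5.29 and -5.33 (Rheb1-/-). The Rheb1-/- myeloid cell arrays were thus the lowest, the reverse of the order for Hoxa9, Hoxa7 and Hoxa5. The Meis1 difference between these genotypes did not pass (-0.42, limma adjusted p = 0.206). Probe A_52_P670612 read -0.28 and 0.68 in stem cells, between -3.13 and -2.57 in progenitors, and between -5.33 and -4.33 in myeloid cells, where the genotypes overlapped.

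Pbx3, another TALE partner of Hoxa9, and Hoxb4, a gene known for expanding stem cells when overexpressed, did not follow this order. Pbx3 probe A_51_P416974 read -0.15 and -0.97 in wild-type and Rheb1-/- stem cells, -0.76, -0.95 and -0.88 in wild-type progenitors and -1.39, -1.74 and -1.48 in Rheb1-/- progenitors. Wild-type myeloid cells read -0.42, -0.50 and -0.81, and Rheb1-/- myeloid cells -1.33, -1.03 and -1.08. In all 3 cell types the Rheb1-/- arrays lay below the wild-type arrays, with a difference of -0.81 between the single stem cell arrays. Probe A_52_P140177 of Pbx3 lay between -5.36 and -3.29 on all arrays, and probe A_52_P406028 was never well above background. Hoxb4 read -2.20 and -1.59 in wild-type and Rheb1-/- stem cells, between -2.58 and -1.69 in progenitors, and between -1.69 and -1.06 in myeloid cells.

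**Figure D1:**
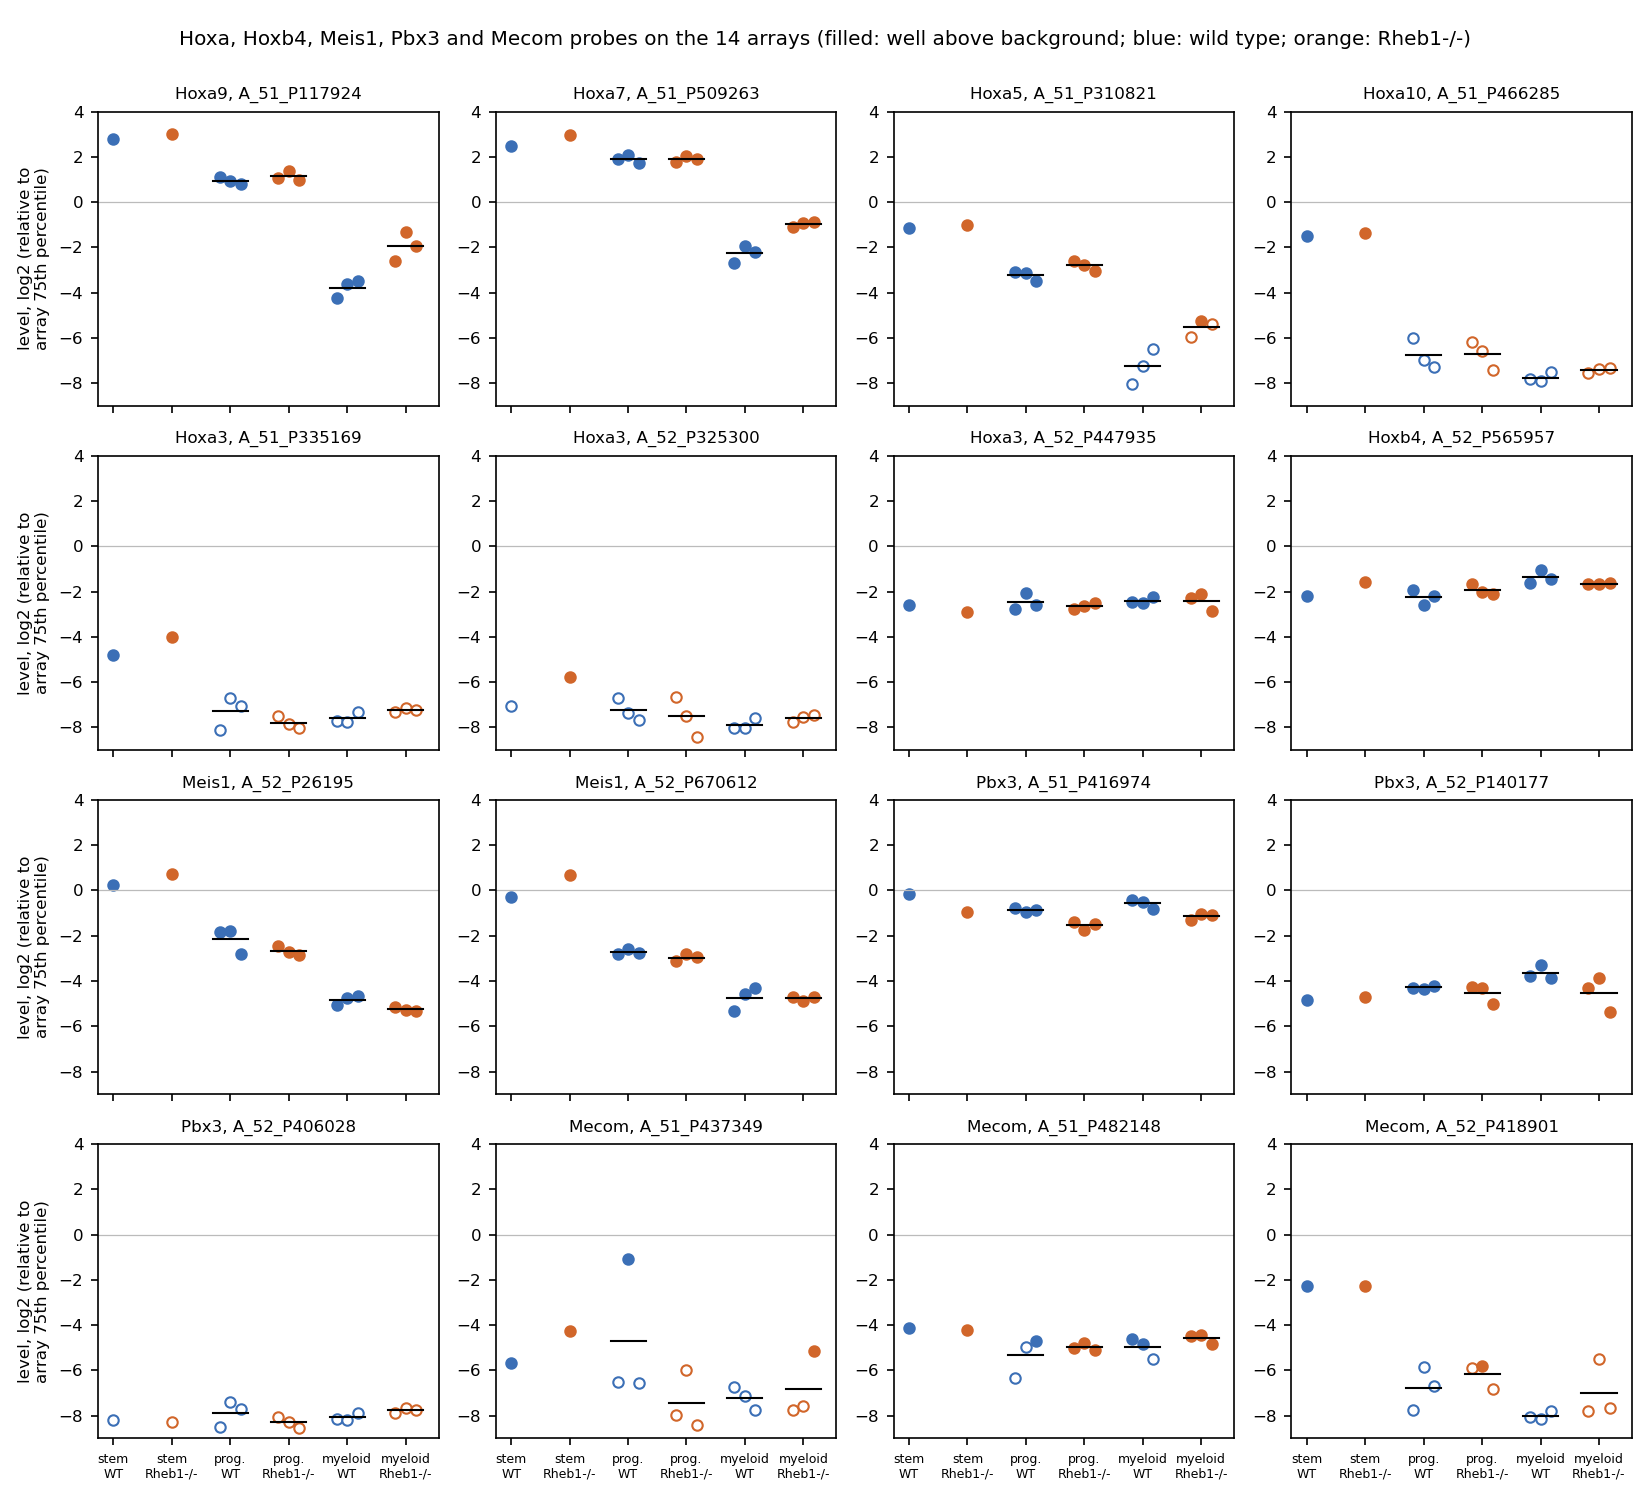
Level of each of the 16 probes (log2 signal relative to the array's 75th percentile) on the 14 arrays, with wild-type arrays in blue, Rheb1-/- arrays in orange, filled points well above background and lines at the means of 3 arrays. Hoxa9, Hoxa7, Hoxa5 and Meis1 step down from stem cells to progenitors to myeloid cells, while Hoxa10 and Mecom A_52_P418901 are bright on the 2 stem cell arrays only.

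From wild-type progenitors to myeloid cells Hoxa5, Hoxa7, Hoxa9 and Meis1 fell and Hoxb4 rose. Hoxa9 fell 26.7-fold (log2 -4.74 ± 0.30 SE, n = 3 per group, limma adjusted p = 2.02e-07) and Hoxa7 18.1-fold (-4.18 ± 0.18, limma adjusted p = 2.01e-08). Hoxa5 fell at least 6.30-fold (fitted -4.02, limma adjusted p = 1.42e-06). Its probe entered the tests only through the progenitor groups, where it was bright, so the filter favoured a fall for it. Meis1 fell 6.44-fold by probe A_52_P26195 (-2.69 ± 0.24) and 4.06-fold by probe A_52_P670612 (-2.02 ± 0.22). With the normexp background correction the falls still passed but were smaller, at -3.49 for Hoxa9, -3.64 for Hoxa7, -0.73 for Hoxa5, below the bound just given, and -1.13 and -0.63 for Meis1. Hoxb4 rose 1.82-fold (0.86 ± 0.19, limma adjusted p = 0.00175). In all, 6 of 10 probes passed, 5 lower and 1 higher, beside 76.9% of all 27137 probes tested (38.8% higher, 38.1% lower), so the count is below the background. Groups did not overlap for 7, beside 78.9% of all probes. The median difference of the 10 probes was -0.97, and that of all probes 0.04.

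In Rheb1-/- cells the same 5 probes fell from progenitors to myeloid cells. The falls of Hoxa9 and Hoxa7 were smaller than in the wild type by the test of the difference given further on, which Hoxa5 did not pass. For Hoxa9 that difference did not pass in 13 of 22 alternatives. Hoxa9 fell 8.54-fold (log2 -3.10 ± 0.30 SE, n = 3 per group, limma adjusted p = 7.07e-06), Hoxa7 7.31-fold (-2.87 ± 0.18) and Hoxa5 by a fitted -2.74 ± 0.33, with 1 of 3 myeloid cell arrays above background. The filter favoured a fall of Hoxa5 here too. Meis1 fell 5.93-fold by A_52_P26195 and 3.44-fold by A_52_P670612. With normexp these falls were -2.71, -2.64 and -0.91 for Hoxa9, Hoxa7 and Hoxa5, and -0.98 and -0.65 for Meis1. Hoxb4 differed by 0.30 without passing (limma adjusted p = 0.189). Pbx3 probe A_51_P416974 rose 1.31-fold (0.39 ± 0.14, limma adjusted p = 0.0254). That was 6 of 10 probes beside 68.1% of all probes (30.4% higher, 37.7% lower), and groups did not overlap for 6, beside 73.0%. Slide 4 held both cell types of this genotype, and on it the differences were -2.95 for Hoxa9, -2.89 for Hoxa7, -2.51 for Hoxa5, -2.40 and -1.80 for Meis1 and 0.34 for Pbx3. With slide as a block the Pbx3 rise no longer passed (limma adjusted p = 0.202, over all alternatives 0.0112 to 0.202), nor did it without Rheb1-/- progenitor array 2 or without Rheb1-/- myeloid cell array 2 or 3 (limma adjusted p = 0.103, 0.0829 and 0.0720).

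**Figure D2:**
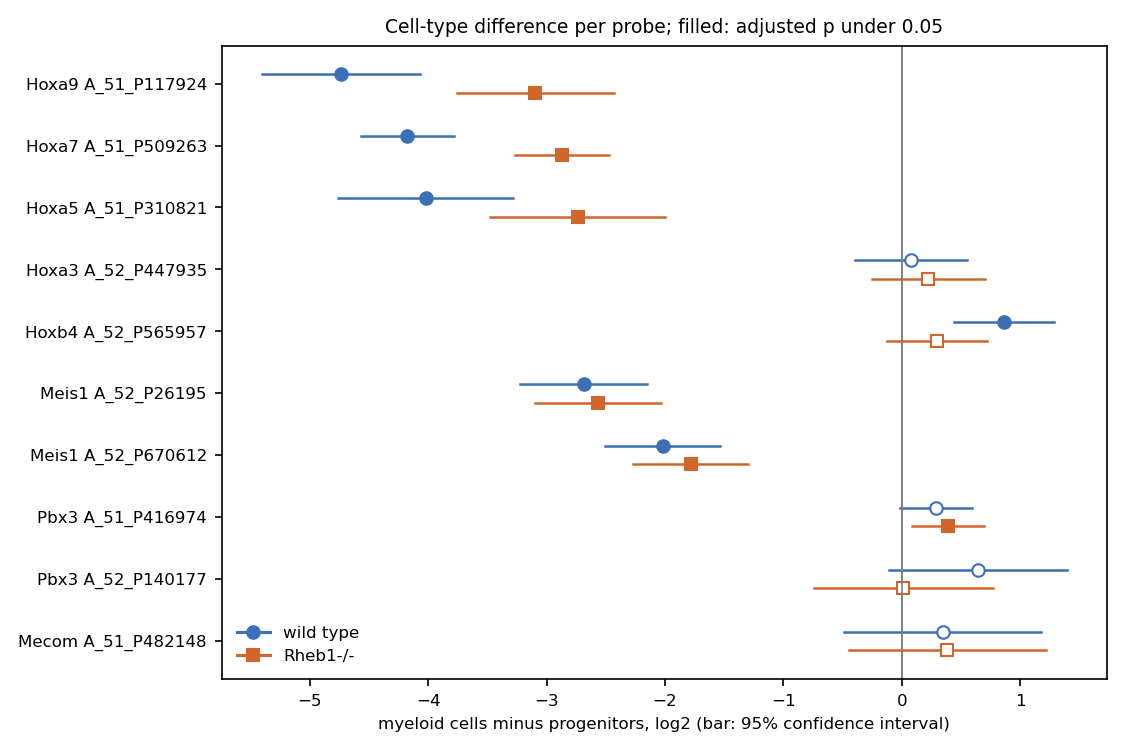
Myeloid cells minus progenitors (log2, x axis) for the 10 probes tested, in the wild type (circles) and in Rheb1-/- cells (squares), with 95% confidence intervals and filled symbols at an adjusted p under 0.05. The Hoxa9, Hoxa7 and Hoxa5 intervals lie between -5.41 and -2.00, and the Rheb1-/- squares are to the right of the wild-type circles for all 3.

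In progenitors none of the 10 probes passed the test between genotypes by limma, beside 0.0958% of all probes (0.0700% higher, 0.0258% lower), and 2 had an unadjusted p under 0.05 (3073 of 27137 did). Hoxa9 differed by 0.19 (95% confidence interval -0.48 to 0.85, n = 3 per genotype, limma adjusted p = 0.881) and Hoxa7 by -0.01 (-0.40 to 0.39, limma adjusted p = 0.995). Pbx3 probe A_51_P416974 was 1.59-fold lower without passing (-0.67 ± 0.14 SE, limma adjusted p = 0.106, 0.0617 to 0.577 over 25 alternatives), and on slide 3 alone the difference was -0.65. Meis1 differed by -0.54 and -0.24 by its 2 probes, and Hoxa5 by 0.44. Groups did not overlap for 2 of the 10 probes, Hoxa5 and Pbx3 A_51_P416974, beside 19.2% of all probes.

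In myeloid cells 3 Hoxa genes were higher in the Rheb1-/- samples. Hoxa9 rose 3.56-fold (1.83 ± 0.30 SE on the log2 scale, limma adjusted p = 0.00189 with 3 arrays per genotype), and Hoxa7 rose 2.46-fold (1.30 ± 0.18, limma adjusted p = 0.000828). With normexp the differences were 0.97 and 0.90 and still passed. Hoxa5 was higher by a fitted 1.72 ± 0.33 (limma adjusted p = 0.00413), with 1 of 3 Rheb1-/- arrays well above background, so no fold is given. With normexp its difference was 0.01 (limma adjusted p = 0.955), and none of the 3 wild-type arrays was well above background. Pbx3 probe A_51_P416974 fell 1.49-fold (-0.57 ± 0.14, limma adjusted p = 0.0107). These 4 of 10 probes stand beside 31.6% of all probes, 15.6% higher and 15.9% lower, a share near that of the array as a whole. The median of the 10 differences was -0.01, and that of all probes -0.06.

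The other tested probes did not pass between the genotypes in myeloid cells. Meis1 differed by -0.42 (95% confidence interval -0.96 to 0.11) and -0.01 (-0.49 to 0.48), Hoxb4 by -0.27 (-0.69 to 0.15), Hoxa3 by -0.02 and Mecom A_51_P482148 by 0.39. The second Pbx3 probe, A_52_P140177, differed by -0.87 ± 0.34 SE (limma adjusted p = 0.0753, 0.0180 to 0.225 over 22 alternatives). It passed with replicate number as a block (limma adjusted p = 0.0412), with slide as a random block (0.0180 by limma), with array weights (0.0200 by limma) and without Rheb1-/- myeloid cell array 2, where it was -1.18. Meis1 probe A_52_P26195 passed only without wild-type progenitor array 3 (limma adjusted p = 0.0393). Groups did not overlap for 6 of the 10 probes, beside 47.3% of all probes.

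**Figure D3:**
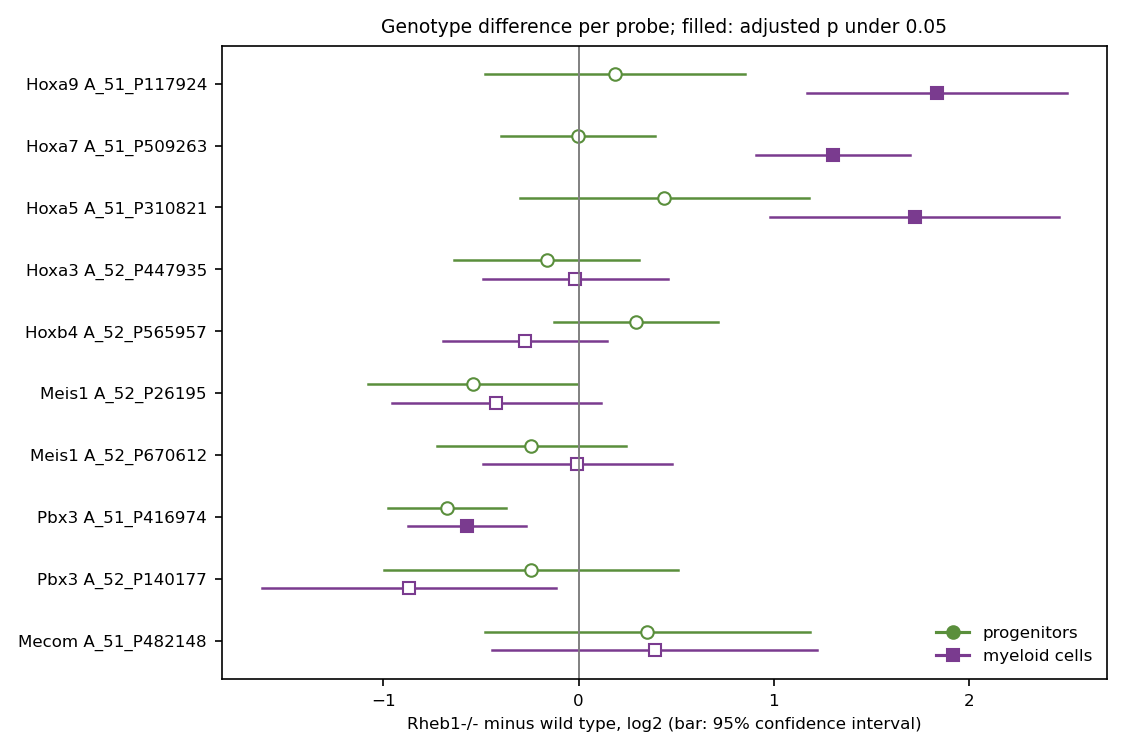
Rheb1-/- minus wild type (log2, x axis) for the 10 probes tested, in progenitors (circles) and in myeloid cells (squares), with 95% confidence intervals and filled symbols at an adjusted p under 0.05. The myeloid cell squares of Hoxa9 (1.83), Hoxa7 (1.30) and Hoxa5 (1.72) lie to the right of 0, those of Pbx3 to the left, and no progenitor circle is filled.

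Whether the genotype difference itself differed between the cell types was tested as the difference of the 2 contrasts. It passed for Hoxa7 (log2 1.31 ± 0.25 SE, limma adjusted p = 0.0167) and for Hoxa9 (1.64 ± 0.42, limma adjusted p = 0.0394), 2 of 10 probes beside 9.40% of all probes (4.60% higher, 4.80% lower). Hoxa7 passed in all 22 alternatives. Hoxa9 did not pass with normexp (0.78, limma adjusted p = 0.129), with no filter on dim probes (0.0767) or when any 1 array other than Rheb1-/- myeloid cell array 1 was left out (up to 0.0835). Hoxa5 gave 1.28 ± 0.47 (limma adjusted p = 0.108, 0.0194 to 0.667 over 21 alternatives). The remaining probes, those of Meis1 and Pbx3 among them, lay between -0.63 and 0.24, and none passed.

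Marker genes of other cell states moved with the genotype in myeloid cells. Of 13 measured markers of granulocyte-macrophage progenitors 8 were higher and 1 lower in Rheb1-/- myeloid cells, beside 16.3% of all genes higher and 17.1% lower, among them the primary granule genes Prtn3 (log2 1.61) and Elane (1.12). Their summed level, as a multiple of the array's 75th percentile, was 775 to 958 on wild-type and 1277 to 1725 on Rheb1-/- arrays, against 1921 to 2290 in progenitors, and all 13 were well above background on every array. Of 13 erythroid markers 11 were lower, with sums of 744 to 1198 against 105 to 460, of 16 megakaryocyte and platelet markers 9 were lower, of 9 B cell markers 7, and of 15 mature myeloid markers 1 was higher and 2 lower (4284 to 4725 against 3533 to 4266). Of 10 T and NK cell markers 6 were lower and 1 higher, that being Nkg7, which is also in the progenitor list, and their sums were 21.7 to 28.3 against 41.9 to 60.0. Stem cell markers summed to 23.3 to 27.1 in wild-type and 15.7 to 19.1 in Rheb1-/- myeloid cells, with 12 to 15 of 17 well above background. The part of these markers in the Hoxa differences was not tested. In bulk RNA, more cells that express a gene and more RNA of it per cell cannot be told apart.

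In progenitors none of 16 tested markers of megakaryocytes and platelets passed between genotypes, although their sums, 44.5 to 64.4 on wild-type and 15.7 to 25.8 on Rheb1-/- arrays, did not overlap. Stem cell markers there summed to 65.6 to 84.7 against 52.4 to 61.5. The stem cell arrays carried the highest sums of stem cell markers, 151 (wild type) and 192 (Rheb1-/-), with all 17 well above background on both. The wild-type stem cell array also had more erythroid marker signal (108 against 33.1), B cell marker signal (101.5 against 30.8) and eosinophil, basophil and mast cell marker signal (213 against 29.0). Its mature myeloid marker signal was higher too (1414 against 702, with 1063 to 1741 in wild-type progenitors). Marker signal of granulocyte-macrophage progenitors (689 against 950) and of T and NK cells (38.9 against 48.0) was lower on it. The part of these markers in the stem cell values of the homeobox genes was not tested. On slide 2, the levels of wild-type stem cells and of progenitor array 1 were 2.80 against 1.12 for Hoxa9 and 0.24 against -1.84 for Meis1 A_52_P26195.

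**Figure D4:**
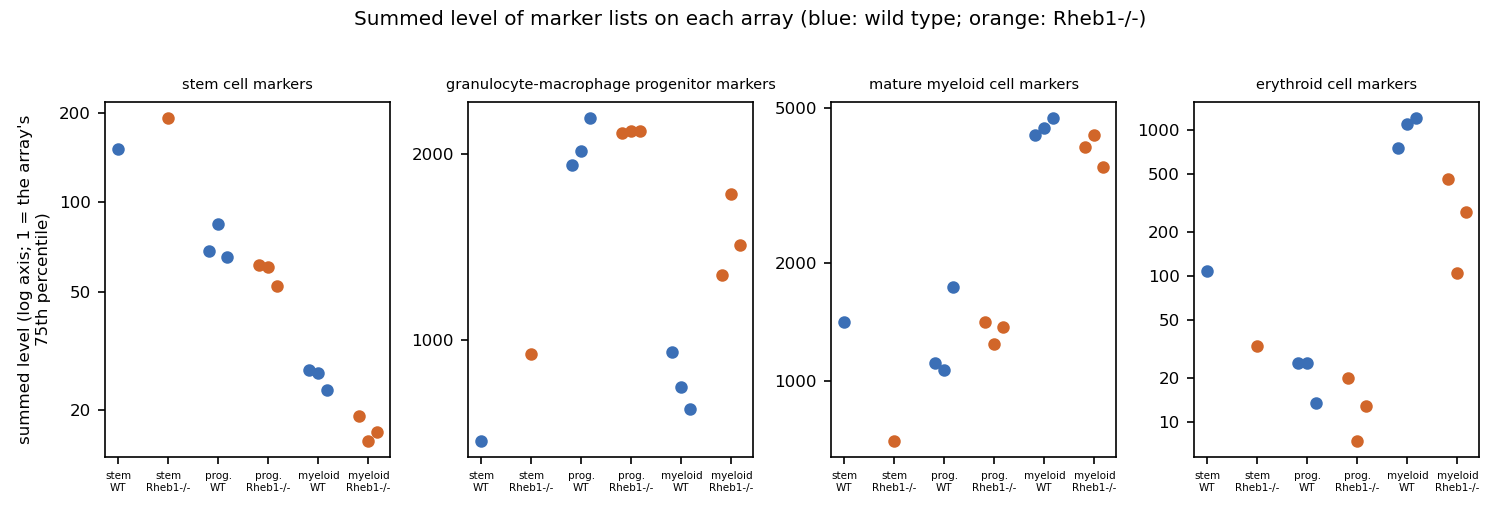
Summed level of 4 marker lists on each array (log axis, 1 being the array's 75th percentile), with wild-type arrays in blue and Rheb1-/- arrays in orange. In myeloid cells the granulocyte-macrophage progenitor sums are 775 to 958 in the wild type and 1277 to 1725 in Rheb1-/- samples, and the erythroid sums 744 to 1198 and 105 to 460.

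The other Hox genes placed the 6 members in their clusters. Of the 33 other Hox genes 32 were on the array and 10 passed the filter. In stem cells every Hoxa gene from Hoxa2 to Hoxa10 that was measured was well above background on both arrays by its brightest probe, and Hoxa11 on the wild-type array only. In progenitors Hoxa4 and Hoxa6 joined Hoxa3, Hoxa5, Hoxa7 and Hoxa9 on all arrays, while Hoxa10 and Hoxa11 were on none. Hoxa3 counts here by probe A_52_P447935 alone, which was also well above background on every myeloid cell array. Hoxa4, a neighbour of Hoxa5, behaved like it: it fell from wild-type progenitors (mean -3.06) to myeloid cells (-5.83), by 2.77 on the log2 scale (limma adjusted p = 3.55e-07), and was higher in Rheb1-/- myeloid cells (0.94 ± 0.19 SE, limma adjusted p = 0.00496; 1 of 3 wild-type arrays above background). Hoxa6 was well above background on 13 of 14 arrays and differed by -0.41 between genotypes in myeloid cells without passing.

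The Hoxb genes fell into 2 patterns. Hoxb6 was well above background on every array and rose from wild-type progenitors (-1.24) to myeloid cells (0.21), by 1.45 (limma adjusted p = 8.66e-07), as Hoxb3 did by 0.57 and Hoxb4 by 0.86. Hoxb2 was -2.73 and -2.43 in wild-type and Rheb1-/- stem cells and Hoxb5 -3.46 and -2.72, both well above background there, and the means of the 4 other groups were -6.05 to -5.03 for Hoxb2 and -6.28 to -5.28 for Hoxb5. Hoxd10 rose at least 1.51-fold from wild-type progenitors to myeloid cells and was at least 1.42-fold lower in Rheb1-/- myeloid cells. Over the list, 4 genes were higher and 3 lower in wild-type myeloid cells than in progenitors, and 3 higher and 4 lower in Rheb1-/- cells, beside 77.8% of all genes in the wild type (39.5% higher, 38.3% lower) and 68.6% in Rheb1-/- cells (30.3% higher, 38.2% lower). Between genotypes 1 was higher and 2 lower in myeloid cells (33.5% of all genes passed) and none in progenitors by limma (0.0903%, of which 0.0621% higher and 0.0282% lower).

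**Figure D5:**
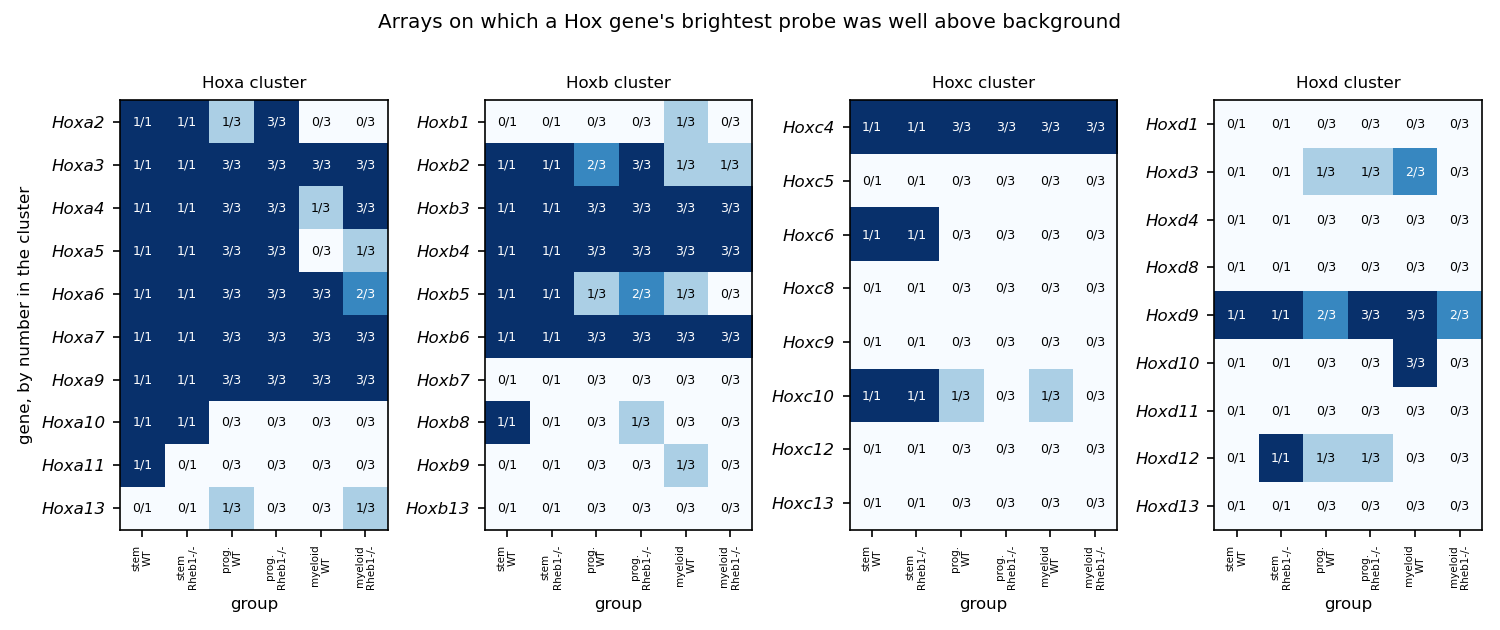
Number of arrays on which a Hox gene's brightest probe was well above background, out of 1 stem cell array and 3 arrays of each other group (rows, genes by cluster; columns, groups; darker is a larger share). The Hoxa rows shown fill from Hoxa2 to Hoxa10 in stem cells, Hoxa10 is empty elsewhere, and most Hoxc and Hoxd rows are empty.

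Among the other TALE genes, 7 of 11 passed the filter. The Hox partner Pbx2 and the Meis relative Pknox1 rose from wild-type progenitors to myeloid cells, by 1.67 and 1.33, while Pbx4 fell by 3.07 and the repressor Tgif2 fell by 2.26, and 4 were higher and 3 lower in all, beside 77.8% of all genes that passed. With Tgif1, which fell by 1.23, these were the TALE genes that changed in the direction of Meis1. Between genotypes Pknox1 alone of the 7 passed in myeloid cells, beside 33.5% of all genes (-0.64 ± 0.13 SE, limma adjusted p = 0.00433), and its difference between cell types passed too (-0.64, limma adjusted p = 0.0490). Meis2 was well above background on 0 of 14 arrays, and Meis3 on the 2 stem cell arrays.

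Regulators of Hox transcription, which include the MLL complex and its partners that keep Hox genes on and the Polycomb group that keeps them off, were measured in 27 of 30 genes. In Rheb1-/- myeloid cells 6 were higher and 6 lower, beside 16.3% and 17.1% of all genes. Psip1, which tethers the MLL complex to chromatin, rose by 0.78 (limma adjusted p = 0.000536), and the Polycomb genes Bmi1 and Suz12 rose by 0.65 and 0.47, whereas Ezh1, a Polycomb methyltransferase, fell by 0.63. From wild-type progenitors to myeloid cells 9 were higher and 11 lower, beside 39.5% and 38.3% of all genes. Bmi1 fell by 1.68, the MLL complex subunits Ash2l and Dpy30 fell by 1.46 and 1.39, and Kdm6b, a demethylase that removes the Polycomb mark, rose by 2.74. The genotype difference differed between cell types for Psip1 (0.59) and Ezh1 (-0.64), 1 in each direction, beside 5.07% of all genes higher and 4.94% lower.

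Genes known as targets or co-expressed partners of Hoxa9 and Meis1 were tested in 21 of 22 cases. From wild-type progenitors to myeloid cells 13 fell and 7 rose, beside 38.3% of all genes lower and 39.5% higher. The largest fall in the list was that of Cd34, a stem and progenitor surface protein (-5.00 ± 0.25 SE, n = 3 per group, limma adjusted p = 4.90e-08), with the cell cycle kinase Cdk6 (-2.66), the transcription factor Myc (-3.59) and the receptor Kit (-2.21). In Rheb1-/- myeloid cells 4 were higher and 3 lower than in the wild type, beside 16.3% and 17.1% of all genes. Myc was higher by 1.96 (limma adjusted p = 0.000218), Cdk6 by 1.11 (limma adjusted p = 0.000213) and Kit by 0.89 (limma adjusted p = 0.000539), while the growth factor gene Igf1 fell by 2.26. The difference between cell types passed for Myc (1.52), Cdk6 (0.98) and Kit (0.67). These were 3 of 21 genes, all higher, beside 5.07% of all genes higher and 4.94% lower. Kit, Cd34 and Flt3 also stand in the marker lists for stem cells or progenitors. None of the list passed between genotypes in progenitors.

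Other transcription factors of stem cells were tested in 17 of 18 cases. From wild-type progenitors to myeloid cells 14 fell and 1 rose, beside 38.3% of all genes lower and 39.5% higher. In Rheb1-/- cells 12 fell and 0 rose by limma, beside 38.2% lower and 30.3% higher. Zfp521 fell by 3.75, with 1 of 3 myeloid cell arrays above background, Ikzf2 by 2.78 and Gfi1 by 1.47, and Mycn fell at least 12.6-fold. In Rheb1-/- myeloid cells Gfi1 rose by 0.73 and Lyl1 by 0.46, while Gfi1b, a factor of red cells and platelets, fell by 1.19 and Ikzf2 fell by 0.71. No gene of this list passed the test of the difference between cell types.

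The genes whose pattern over the 14 arrays was most like that of a member were found by the root mean square difference of profiles centred on their means, among probes well above background in the member's highest group. For Hoxa9, whose own spread over arrays was 2.35 (SD, log2), they were Muc13 (0.38), Tfr2 (0.43) and Lysmd2 (0.47). For Hoxa7 they were Smo (0.23), Fkbp9 (0.24) and Zfp820 (0.26). For Meis1 A_52_P670612 they were Msi2 (0.26), Syn3 (0.31) and Jag2 (0.33), and for A_52_P26195 Pgap4 (0.27), Bmp1 (0.30) and Aff3 (0.31). For Hoxa10 they were Fam181b (0.46), Samd12 (0.49) and Pglyrp2 (0.50), and for Mecom A_52_P418901 Spint1 (0.65), Dkkl1 (0.71) and Pglyrp2 (0.71). Msi2 probe A_52_P19147 is another probe than the one that stands for Msi2 in the list of Hoxa9 and Meis1 targets. Array groups, slides and scaling are shared by all these profiles.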

How the data were processed

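RNA from 14 samples was labelled with 1 dye, Cy3, for Agilent arrays, per the labels' protocols. The intensity analysed is the deposited scanner files' processed signal, from which Feature Extraction had subtracted background, per the file headers. These give version 10.7.3.1, whereas the submitters' processing notes give 9.1. The calls of well above background come from the same deposited files. A deposited set of log2 values was used as an alternative.

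Control spots (1639 of 45018) and outlier spots (79 to 195 an array) were dropped, spots of 1 probe averaged, and the array's 75th percentile subtracted on the log2 scale. Probes were fitted in limma 3.58.1 (R 4.3.3, statmod 1.5.0) over the 12 progenitor and myeloid cell arrays with a mean per group. The residual degrees of freedom were 8, the prior ones 2.11, and the residual SD had a median of 0.185. A probe was tested if every array of at least 1 of the 4 groups called it well above background and each group held 2 or more values, which left 27137. Tests were two-sided with Benjamini-Hochberg adjustment over all of these, at 0.05. A probe bright in only 1 cell type entered through that cell type, which favours a difference between cell types for it. For the other gene lists, 1 probe per gene (that of highest mean, 17715 genes) was taken from this fit, with its adjustment over all probes. Up to 4 passing genes of smallest p were named per list. Where the lower group was not well above background, "at least N-fold" compares the higher group with a floor, which on each array is the dimmest signal called well above background or the probe's own signal if brighter. On simulated data, known changes were used to test the fit. The number of arrays limits the precision. The members and lists were chosen with earlier results of these data known. Probe positions were taken from the files (mm9), and gene names from the files and RefSeq. Alternatives were quantile normalization, normexp (offset 50), the deposited values, gene level, other filters, replicate number or slide as a block, subsets of arrays, array weights, an intensity trend, and leaving out each array. Some items are not reported here.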

Additional observations from a re-analysis of the deposited data

Results flagged for a closer look

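For 8 genes the difference between Rheb1-/- and wild-type samples was not the same in myeloid cells as in progenitors. For members and other genes alike, limma's test of that difference was adjusted over all probes, and the other genes had 1 probe each. On the log2 scale, the myeloid cell difference exceeded the progenitor difference by 1.64 for Hoxa9 (limma adjusted p = 0.0394) and by 1.31 for Hoxa7 (0.0167 by limma). Among the other genes it was higher by 1.52 for Myc, 0.98 for Cdk6, 0.67 for Kit and 0.59 for Psip1. It was lower for Pknox1 (-0.64, limma adjusted p = 0.0490) and Ezh1 (-0.64, limma adjusted p = 0.0460). In each of these the genotypes lay on different slides in myeloid cells, so slide and genotype cannot be told apart there. Hoxa9 did not pass in 13 of 22 alternatives, normexp among them (limma adjusted p = 0.129), whereas Hoxa7 passed in all 22.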

How the results depend on the processing

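The counts of member probes that passed (10 tested in the main fit) were 0 in progenitors under all 25 alternatives. They were 3 to 5 in myeloid cells, 5 to 8 between cell types in the wild type and 5 to 6 in Rheb1-/- cells. In the main fit 0.0958%, 31.6%, 76.9% and 68.1% of all probes passed in these comparisons, in the same order. The count over all probes moved too. In myeloid cells it was 6365 of 27175 without Rheb1-/- myeloid cell array 3 and 12063 of 27137 with slide as a random block. For the difference between cell types 9.40% of all probes passed in the main fit. The member count of 2 there became 1 with normexp and 1 with no filter on dim probes. It was 3 with quantile scaling and with the deposited values, where Hoxa5 passed, and 1 to 2 with each array left out. Normexp made the Hoxa9, Hoxa7, Hoxa5 and Meis1 falls and the Hoxa rises smaller, as given with those results. Scaling moved the median of all probes between cell types in the wild type from 0.04 to -0.07 (quantile) and 0.13 (normexp). Directions turned for members that had not passed, and the cause was not tested. With normexp these were Meis1 A_52_P670612 (-0.019), Mecom A_51_P482148 (-0.095) and Hoxa5 (-0.18) for the difference between cell types, and Mecom in myeloid cells (-0.095). Between wild-type cell types, Mecom and Hoxa3 turned with quantile scaling (-0.072 and -0.086) and with the deposited values (-0.073 and -0.087). Between genotypes in myeloid cells, both settings turned Hoxa3 (0.12) and Meis1 A_52_P670612 (0.30). Array weights turned Hoxa3 (-0.0048 between wild-type cell types, 0.014 in myeloid cells), Mecom (-0.068) and Pbx3 A_52_P140177 (-0.089). Slide as a random block turned Mecom (-0.034) and Pbx3 A_52_P140177 (-0.086), and slide as a fixed block or slide 3 alone turned Mecom in progenitors (-0.079). With each array left out, Mecom ranged from -0.28 to 0.53 for the difference between cell types, -0.14 to 0.67 in progenitors and -0.15 to 0.66 between wild-type cell types. Hoxa3 ranged over the same from -0.051 to 0.37, -0.31 to 0.035 and -0.068 to 0.27, and from -0.17 to 0.20 in myeloid cells. Meis1 A_52_P670612 ranged from -0.30 to 0.20 in myeloid cells and -0.058 to 0.44 for the difference. For the difference, Meis1 A_52_P26195 ranged from -0.051 to 0.45 and Pbx3 A_51_P416974 from -0.018 to 0.19. Pbx3 A_52_P140177 ranged from -0.30 to 0.43 between Rheb1-/- cell types and Hoxa7 from -0.091 to 0.081 in progenitors.

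Samples share replicate numbers, but same-numbered samples did not deviate together (correlations of -0.16 to 0.13). These correlations cannot exclude pairing, because noise between arrays could hide it, and no sample is tied to an animal. With replicate number as a block 24 probes passed in progenitors (26 without it), 7967 in myeloid cells (8571) and 1744 for the difference (2551), and among the members only Pbx3 A_52_P140177 in myeloid cells changed its call (limma adjusted p = 0.0412). Dim probes limit the Hoxa5, Hoxa10, Hoxa3 and Mecom values to bounds in the groups where they were not well above background.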
